A study of Mus musculus with 6 samples.

Results

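Genes of the extracellular matrix and its assembly were examined in interscapular brown adipose tissue, a fat depot that burns fuel for heat, of mice. The set is a named list of 34 genes. It holds 10 collagen chains, enzymes and chaperones that process collagen, proteoglycans and glycoproteins, secreted binding proteins, and a protease with its inhibitors. At least 1 read fell on 26 of the 34 genes, and 8 had enough reads in enough libraries to be compared between cold and control.

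The data are counts of full-length cDNA reads from a nanopore sequencer, 1 library per mouse, in 6 male C57BL/6N mice aged 20 weeks. The cold group holds 3 mice, numbered 4, 11 and 15, which were kept singly at 4 °C for 24 h. The control group holds 3 mice, numbered 2, 9 and 14, for which the labels give the general husbandry temperature of 22 to 24 °C. The sample records describe the cold stay for all 6 mice, and the groups were taken from the titles and the treatment label. Whether the control mice were also kept singly is not known, so single housing and cold cannot be told apart. No mutation, transgene or drug is named for either group.

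The extracellular matrix is a secreted network of fibrils and gels around cells. Fibrillar collagens are made as long precursors, folded in the endoplasmic reticulum with the help of the chaperone HSP47, trimmed outside the cell, and cross-linked by lysyl oxidases. Proteoglycans and small glycoproteins then set the spacing of the fibrils, and proteases and their inhibitors control turnover. In fat, fibroblast-like precursor cells of the stroma make most fibrillar collagen, while adipocytes and vessel cells add basement membrane.

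Library size moved with the group. The cold libraries of mice 4, 11 and 15 held 2922939, 2982630 and 2951811 gene reads, and the control libraries of mice 2, 9 and 14 held 1849351, 1014812 and 1735298, so every cold library was the deeper. Levels are therefore given as CPM, counts relative to the library total scaled by TMM, on which 3 reads equal 0.988 to 1.01 CPM in cold libraries and 1.62 to 3.08 CPM in control libraries. These limits cover counting error alone. Skeletal muscle marker genes summed to 218, 2984 and 13824 CPM in cold libraries 4, 11 and 15, against 178, 647 and 1065 CPM in control libraries 2, 9 and 14, so cold libraries 11 and 15 stood apart. In whole tissue, fewer cells of a type and less RNA per cell cannot be told apart.

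The word fibroblast in the set's name was checked against 20 fibroblast markers. Of these, 8 had no row in the files used here, namely Pdgfra, Thy1, Dpp4, Cd248, Gfpt2, Fap, Icam1 and Tcf21. A further 4 had fewer than 10 reads, among them Pi16 with 3 reads and Cd34 with 1 read. Ly6a, Ly6c1 and Vim, which other cells of fat also express, carried 98.3% of the reads on this list. The summed level of the list was 511, 474 and 804 CPM in cold libraries 4, 11 and 15, and 687, 498 and 514 CPM in control libraries 2, 9 and 14. The genes are therefore called matrix genes here, and no cell source is given to them.

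Almost all reads of the set came from 1 gene. The 34 genes held 66701 reads over all 6 libraries, 0.496% of the total, and Sparc held 63589 of these, or 95.3%. The other 7 genes that could be compared held 2910 reads together. The remaining 18 genes with a read held 202 reads in all, of which 12 genes had between 1 and 6 reads each. Sparc averaged 4451 CPM in cold and 5391 CPM in control, not divided by transcript length. Serpinh1 came next in cold at 101 CPM, followed by Mgp at 39.0 CPM. In control Mgp, at 81.7 CPM, lay above Serpinh1, at 64.6 CPM. Dpt, Igfbp7, Loxl1, Dcn and Pcolce followed in that order in cold, with Pcolce lowest of the compared genes at 6.97 CPM. In control the order was Igfbp7, Dpt, Dcn, Loxl1 and Pcolce, with Pcolce again lowest at 5.93 CPM.

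The collagens themselves were nearly unread. Col1a1, Col3a1, Col5a1, Col5a2 and Col15a1 had no row in the files used here. Those 5 chains make fibrils, or in the case of Col15a1 link the basement membrane to the tissue below it. The other 5 chains had 14 reads together, 11 of them in cold libraries and 3 in control libraries. Col1a2, the partner chain of Col1a1 in type I collagen, had 2 reads, both in cold libraries. Col4a1 and Col4a2, the common chains of basement membrane collagen, had 5 reads each (of Col4a1, 4 on Col4a1-208, annotated as subject to nonsense-mediated decay, and 1 on Col4a1-201), and Col6a1 and Col6a2, chains of the beaded microfibrils of type VI collagen, had 1 read each. Exons of Col4a1 and Col4a2 overlap on opposite strands, and whether counting used strand is not stated in the labels or headers. With no read in 6 libraries, a count of up to 3 reads, or 0.223 CPM over the pooled libraries, is still allowed for each of the 5 unread chains.

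Several other well-known matrix products had no read or 1 read. Fn1, the fibronectin that cells bind through integrins, Lox, the classical lysyl oxidase, and Mmp2, a gelatin-cleaving protease, had no row. Lum, a fibril-spacing proteoglycan, and Nid1, which links laminin to type IV collagen, had 1 read each. Fbln1, a fibulin of elastic fibres and basement membranes, and Fstl1, a secreted SPARC-related glycoprotein, also had 1 read each. Part of the Fstl1 transcript is nearly identical to a stretch of Ppp2r5a, which had 83 reads, so the Fstl1 read is uncertain.

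Annotated length moved with these counts. Of the 14 genes whose longest protein-coding transcript is under 3000 nt, 14 had a read and 7 could be compared, and they held 66453 reads. Of the 20 genes of 3000 nt or more, 12 had a read, 1 could be compared, and together they held 248 reads. Among the 10 genes of 5000 nt or more, 4 had a read, 13 reads in all. Over all protein-coding genes of the annotation, 35.6% of those under 3000 nt and 30.9% of the longer ones had a read, and 13.2% and 4.11% could be compared. Spearman's rho between length and reads was -0.67 over the 26 matrix genes with a read and -0.40 over the 7365 protein-coding genes with a read. With unread genes included, rho was -0.75 over the 34 matrix genes and -0.08 over all 21943 protein-coding genes. These correlations are across genes, which share libraries and are not independent replicates, and are given as a description. Whether length sets the low collagen counts was not tested.

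**Figure D1:**
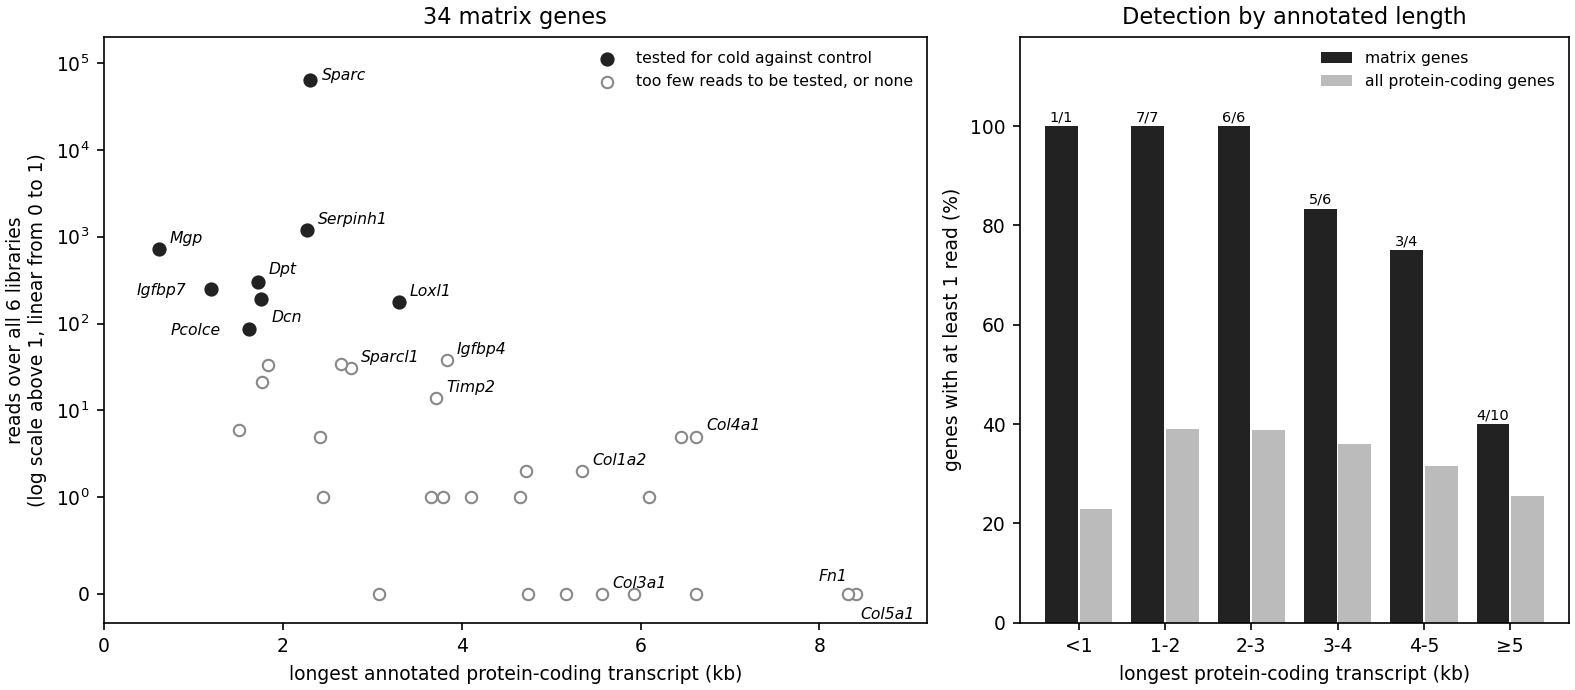
Left, reads over all 6 libraries (log scale above 1, linear from 0 to 1) against the longest annotated protein-coding transcript (kb) for the 34 matrix genes, filled where cold and control were compared. Right, percent of genes with at least 1 read by length class, matrix genes in black with their counts and all protein-coding genes in grey; 4 of the 10 matrix genes of 5 kb or more had a read, against all 14 under 3 kb.

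Of the 8 genes compared, 1 rose and 1 fell in the cold by edgeR's quasi-likelihood test at a Benjamini-Hochberg adjusted p under 0.05. Loxl1 rose and Mgp fell, while Sparc, Serpinh1, Dpt, Dcn, Pcolce and Igfbp7 did not pass. Over all 2093 genes tested, 33.2% were called, 18.1% higher and 15.1% lower, so the share of matrix genes called was near this background. The median log2 change (cold minus control) of the 8 genes was 0.38, beside 0.04 over all genes tested. The libraries of cold and control overlapped in 7 of the 8 genes. Over all genes tested, 47.8% had groups that did not overlap.

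Among the compared genes that act in building collagen fibrils, Loxl1 was the one called. The fibrillar collagens and Lox could not be compared. Loxl1 encodes a lysyl oxidase-like enzyme that cross-links elastin and collagen, and it lies at chr9:58287738-58313186 on the minus strand (GRCm38). It had 48, 59 and 35 reads in cold libraries 4, 11 and 15, and 14, 5 and 16 reads in control libraries 2, 9 and 14. On the CPM scale this was 16.1, 19.5 and 11.5 in cold, against 7.57, 5.14 and 9.60 in control. All 3 cold libraries were above all 3 control libraries, and Loxl1 was the only matrix gene of the 8 for which this held. The mean was 15.7 ± 4.01 CPM in cold and 7.44 ± 2.23 CPM in control (SD, n = 3 each), a log2 change of 1.03 ± 0.33 (SE; adjusted p = 0.0329 by edgeR). Loxl1 has only 1 annotated transcript, of 3297 nt. Its call was lost, with the direction kept, without cold replicate 4 (0.99, adjusted p = 0.0880 by edgeR), cold replicate 11 (0.85, 0.121), control replicate 2 (1.00, 0.0712) or control replicate 9 (0.84, 0.0984), with DESeq2 (0.99, 0.0772), with the first (0.96, 0.110) or second flow cell alone (1.05, 0.0705), and with libraries thinned to equal depth (0.95, 0.0744).

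Serpinh1, which encodes the collagen chaperone HSP47, was the second most read matrix gene. It lies at chr7:99345376-99353239 on the minus strand. Its level was 98.0, 85.4 and 120 CPM in cold libraries 4, 11 and 15, and 35.2, 94.5 and 64.2 CPM in control libraries 2, 9 and 14. Control library 9 lay within the cold range, and the other two controls below it. The log2 change of 0.66 ± 0.32 (SE) had an adjusted p of 0.134 by edgeR, and its 95% interval ran from -0.04 to 1.37. Without control replicate 9 the change was 1.00 and passed (adjusted p = 0.0399 by edgeR), and without control replicate 2 it was 0.35 (0.317). Pcolce, which speeds the trimming of the procollagen C-propeptide, had 6.04, 9.93 and 4.94 CPM in cold and 4.33, 9.25 and 4.20 CPM in control. Its groups overlapped almost fully, with a log2 change of 0.34 (95% interval -0.63 to 1.31). Leaving out 1 library moved it between 0.00064, without cold replicate 11, and 0.67, without control replicate 9.

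Mgp, which encodes matrix Gla protein, a small secreted inhibitor of calcification, was the matrix gene that fell. Its annotated transcript Mgp-201 is 617 nt long and held all 721 Mgp reads. No other gene of the set has a longest protein-coding transcript this short. The first 300 bases of its coding sequence are printed because Mgp is the one matrix gene that fell, and they are nearly all of its coding part. They are read from GENCODE M21 on GRCm38, from exons within chr6:136872659-136875730 on the minus strand, and the start codon is in capitals.
Mgp-201: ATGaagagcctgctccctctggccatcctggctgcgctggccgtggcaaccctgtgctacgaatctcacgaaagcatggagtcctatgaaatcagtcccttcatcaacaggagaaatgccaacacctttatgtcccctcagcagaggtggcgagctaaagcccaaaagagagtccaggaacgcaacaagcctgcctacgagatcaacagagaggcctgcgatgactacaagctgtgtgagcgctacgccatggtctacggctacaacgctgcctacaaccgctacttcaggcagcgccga
Mgp had 68, 119 and 166 reads in cold libraries 4, 11 and 15, and 205, 85 and 78 reads in control libraries 2, 9 and 14. Its level was 22.8, 39.4 and 54.7 CPM in cold, against 111, 87.3 and 46.8 CPM in control. Cold library 15 was above control library 14, so the groups overlapped. The mean was 39.0 ± 15.9 CPM in cold and 81.7 ± 32.4 CPM in control (SD, n = 3 each), a log2 change of -1.07 ± 0.37 (SE; adjusted p = 0.0444 by edgeR, 95% interval -1.87 to -0.26). The call was lost, with the direction kept, without cold replicate 4 (-0.82, adjusted p = 0.133 by edgeR), cold replicate 11 (-1.06, 0.0991), control replicate 2 (-0.78, 0.177) or control replicate 9 (-1.06, 0.0951), with reads of the second flow cell alone (-0.85, 0.224) and with library totals in place of TMM (adjusted p = 0.0582 by edgeR).

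**Figure D2:**
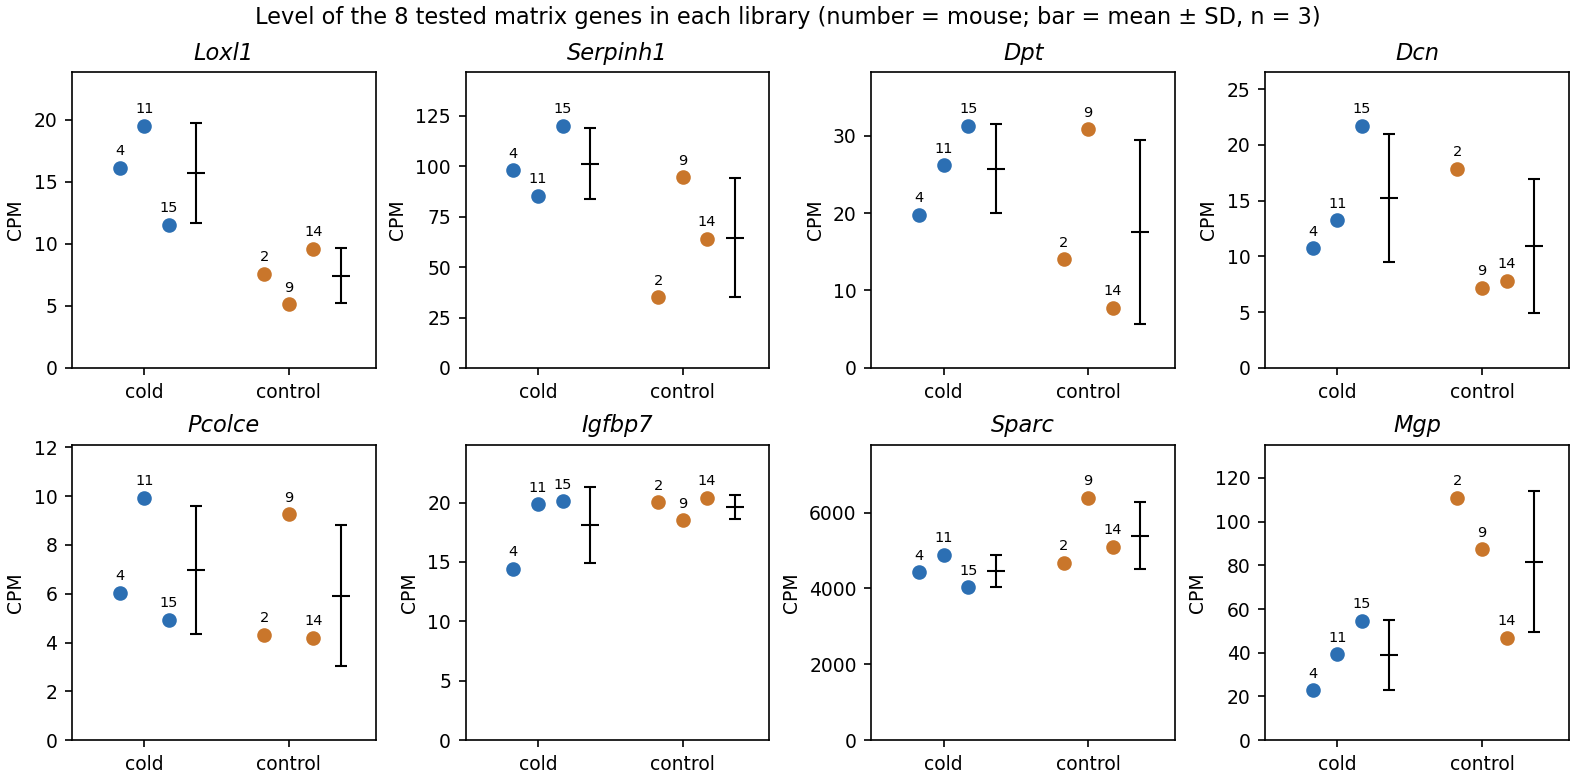
Level (CPM, linear axis from 0) of the 8 compared matrix genes in each library, cold in blue on the left and control in orange on the right, numbered by mouse; bars give mean ± SD, n = 3 per group. Loxl1 is the gene whose groups do not overlap, at 11.5 to 19.5 CPM in cold and 5.14 to 9.60 CPM in control.

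Sparc, which encodes a collagen-binding matricellular glycoprotein also called osteonectin, was the dominant matrix transcript in both groups. It lies at chr11:55394500-55423183 on the minus strand. Its level was 4430, 4885 and 4038 CPM in cold libraries 4, 11 and 15, against 4680, 6389 and 5103 CPM in control libraries 2, 9 and 14. The mean was 4451 ± 424 CPM in cold and 5391 ± 890 CPM in control (SD, n = 3 each). The groups overlapped, and the log2 change of -0.28 ± 0.16 (SE) did not pass (adjusted p = 0.197 by edgeR, 95% interval -0.62 to 0.07). Leaving out 1 library moved it between -0.38 and -0.17, and none of these passed. A correction for annotated length, described further on, moved this to -0.51 with an adjusted p of 0.00969 by edgeR. Sparcl1, a relative of Sparc, had 4, 5 and 5 reads in cold libraries and 5, 4 and 8 reads in control libraries, too few to be compared. On the CPM scale this was 1.34, 1.65 and 1.65 in cold, against 2.70, 4.11 and 4.80 in control. The groups did not overlap on that scale, though the read counts did. These values are near the limit of 3 reads, which equals 1.62 to 3.08 CPM in control libraries.

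Dcn and Dpt act on the fibrils: decorin is a small leucine-rich proteoglycan that binds collagen, and dermatopontin binds decorin and promotes fibril formation. Dcn, at chr10:97479609-97518143 on the plus strand, had 10.7, 13.2 and 21.7 CPM in cold and 17.8, 7.19 and 7.80 CPM in control. Control library 2 lay inside the cold range, and the log2 change was 0.41 (95% interval -0.46 to 1.29, adjusted p = 0.453 by edgeR). It was 0.07 ± 0.42 without cold replicate 15, 1.00 ± 0.41 without control replicate 2 and -0.04 ± 0.54 without cold replicates 11 and 15 together (SE), and none of these passed. Dpt, at chr1:164796644-164824266 on the plus strand, had 19.8, 26.1 and 31.3 CPM in cold and 14.1, 30.8 and 7.80 CPM in control. Control library 9 lay within the cold range, and the log2 change was 0.64 (95% interval -0.26 to 1.54, adjusted p = 0.255 by edgeR). Without control replicate 9 it was 1.19 and passed (adjusted p = 0.0343 by edgeR), and without control replicate 14 it was 0.23 (0.700). Bgn, the decorin relative biglycan, had 5 reads, and Mfap5, a microfibril glycoprotein, had 6.

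Igfbp7 had the smallest log2 change of the 8 compared genes. It encodes a secreted binding protein of insulin and insulin-like growth factors found in vessel basement membranes, and it lies at chr5:77349240-77408041 on the minus strand. It had 14.4, 19.9 and 20.1 CPM in cold and 20.0, 18.5 and 20.4 CPM in control. Cold library 4 was the low one, and the other two cold libraries lay inside the control range. The log2 change of -0.12 had a 95% interval of -0.66 to 0.42 (adjusted p = 0.737 by edgeR), which does not show that the groups are alike. Leaving out 1 library moved it between -0.20 and -0.0023. Igfbp4, another binding protein of insulin-like growth factors, had 10, 4 and 13 reads in cold libraries and 6, 3 and 2 in control libraries, too few to be compared.

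The other secreted members were read too thinly for a test. Gsn, the actin-severing protein gelsolin, which also has a secreted form, had 7, 6 and 10 reads in cold and 2, 3 and 6 in control, 88.2% of them on Gsn-201 and 11.8% on Gsn-205. Serpinf1, the anti-angiogenic serpin PEDF, had 5, 11 and 9 reads in cold and 3, 4 and 1 in control. Serping1, the inhibitor of the first complement component, had 4, 1 and 10 reads in cold and 2 in each control library. On the CPM scale the groups overlapped in Gsn, Serpinf1, Serping1, Igfbp4 and Timp2. Timp2 and Timp3, inhibitors of matrix metalloproteinases, had 14 and 2 reads in all. Over the 18 genes with a read but no test, cold libraries held 137 of 202 reads, or 67.8%, and cold libraries held 65.8% of all gene reads.

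**Figure D3:**
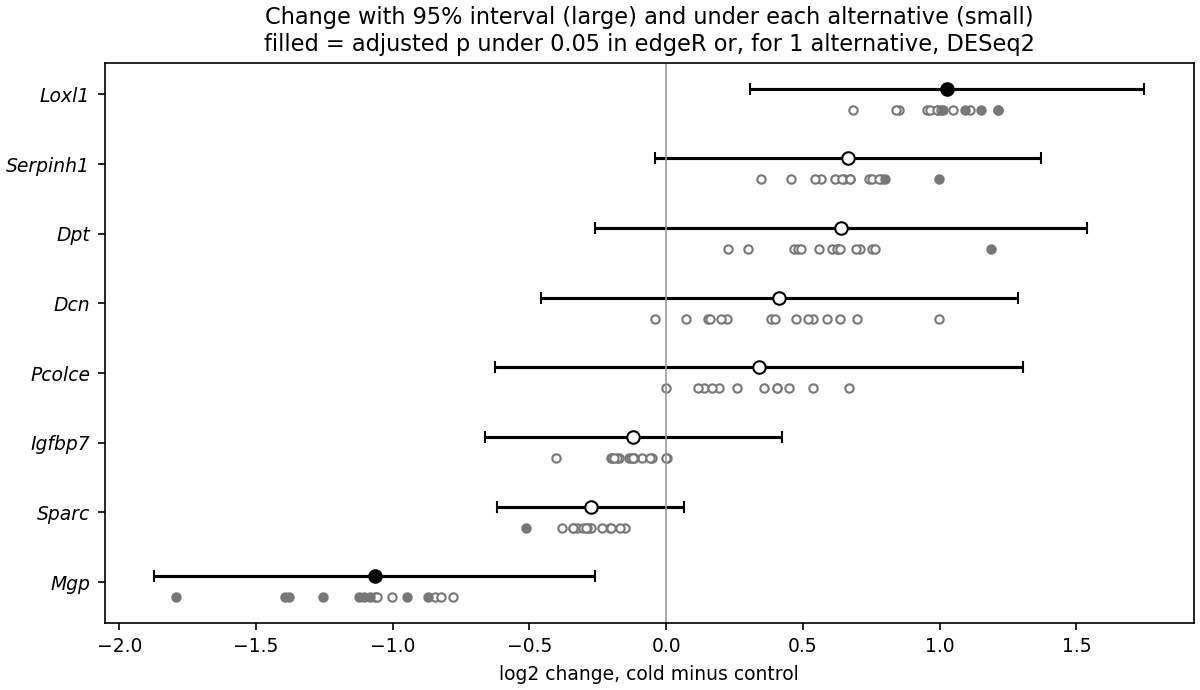
Log2 change (cold minus control) of the 8 compared matrix genes with its 95% interval (large points) and under each alternative way of processing (small points below), filled where the adjusted p was under 0.05. Loxl1 stays above 0 (0.68 to 1.21) and Mgp below 0 (-1.79 to -0.78) in all 15 alternatives, but most Loxl1 points and several Mgp points are open.

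Annotated length also moved with the changes between the groups. Over all genes tested, the median log2 change was -0.35 in the 169 genes under 700 nt, of which 7.10% rose and 24.3% fell. It was 0.31 in the 329 genes of 3000 nt or more, of which 27.7% rose and 10.6% fell. The mean annotated length of counted reads was 1561, 1577 and 1529 nt in cold libraries 4, 11 and 15, against 1364, 1490 and 1506 nt in control libraries 2, 9 and 14, so that all cold libraries were above all control libraries. Mgp, at 617 nt, lies in the class with the lowest median, and Loxl1, at 3297 nt, in that with the highest. With a smooth of counts on length fitted for each library as an offset, Loxl1 had a log2 change of 0.68 (adjusted p = 0.117 by edgeR) and was no longer called. Under the same offset Mgp had -0.87 (adjusted p = 0.0424 by edgeR) and stayed called.

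**Figure D4:**
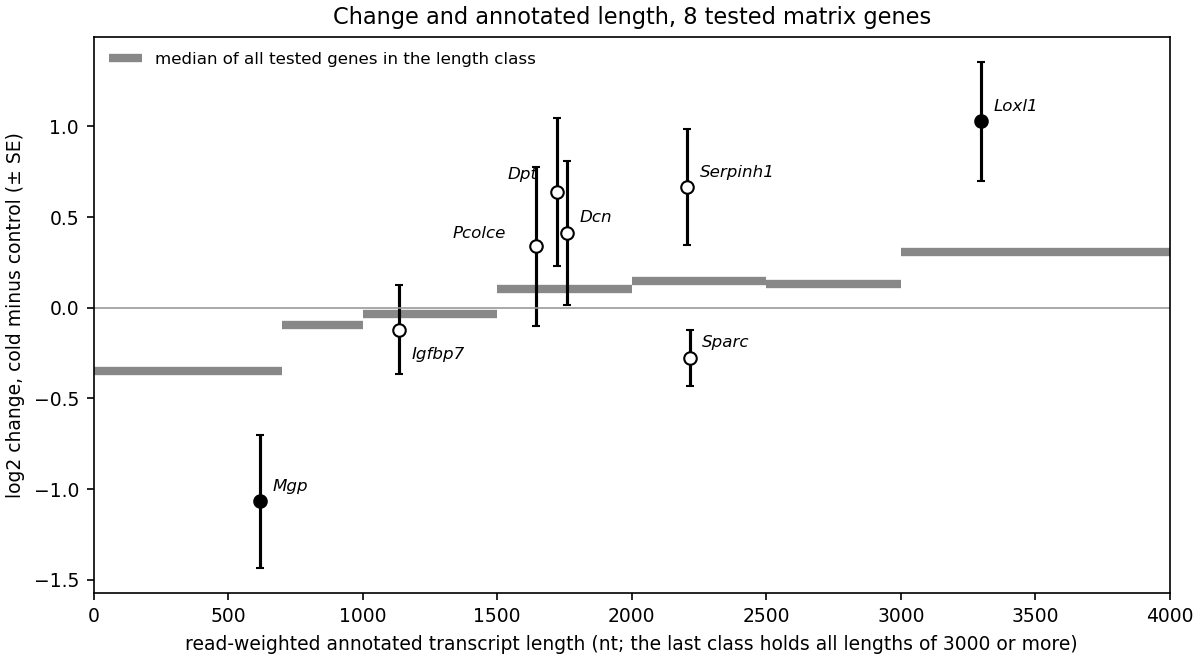
Log2 change (cold minus control, ± SE) of the 8 compared matrix genes against read-weighted annotated length (nt), filled where the adjusted p was under 0.05. Grey bars are the medians of all tested genes per length class, from -0.35 under 700 nt to 0.31 at 3000 nt or more; Mgp lies at the short end and Loxl1 at the long end.

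Reads of the matrix genes fell on 45 annotated transcripts, of which 40 are protein-coding, and 17 transcripts of the 8 genes could be compared. Of these, 4 were called by edgeR (32.7% over all transcripts tested), 2 higher (17.4%) and 2 lower (15.3%). Loxl1-201 and Mgp-201 repeat their genes. Serpinh1-202 rose, with 34.2, 27.5 and 42.2 CPM in cold libraries 4, 11 and 15 and 11.4, 21.6 and 19.2 CPM in control libraries 2, 9 and 14, a log2 change of 1.02 ± 0.30 (SE; adjusted p = 0.0221 by edgeR). Sparc-203, a short retained-intron transcript with 87 reads, fell by 1.29 on the log2 scale (adjusted p = 0.0176 by edgeR), with 4.03, 3.64 and 5.27 CPM in cold and 13.5, 10.3 and 7.80 CPM in control. Neither group overlapped the other for these 2 transcripts. Over all genes tested, 47.8% had groups that did not overlap, and this share was not counted over transcripts. The Serpinh1-202 call was lost without cold replicate 4 (1.02, adjusted p = 0.0670 by edgeR), cold replicate 15 (0.86, 0.0611) or control replicate 2 (0.78, 0.0621). It was also lost with the second flow cell alone (0.86, adjusted p = 0.0844 by edgeR). The Sparc-203 call was lost without cold replicate 4 (-1.25, adjusted p = 0.0601 by edgeR), cold replicate 11 (-1.18, 0.0636) or control replicate 2 (-1.02). With no count filter Sparc-203 was not called (-1.19, adjusted p = 0.0955 by edgeR). It was not among the transcripts tested on either flow cell alone.

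The way a gene's reads divided among its transcripts did not pass the test in any matrix gene. Transcript usage, how a gene's reads divide among its transcripts, could be tested in Sparc, Serpinh1 and Igfbp7. None was called (1.67% of 539 genes were, and 26 had an unadjusted p under 0.05), and the lowest unadjusted p of the 3 was 0.0926 for Sparc. Sparc-201 held 71.8 ± 0.844% of Sparc reads in cold and 71.3 ± 0.0296% in control (SD, n = 3 each). Sparc-202 held 24.2 ± 1.13% in cold and 24.4 ± 0.161% in control. The coding parts of these 2 transcripts differ by 3 bases at the start of an exon. The windows below, from GENCODE M21 on GRCm38 and the minus strand, show where, and the bases that Sparc-202 lacks, at chr11:55407277-55407279, are in capitals.
Sparc-201: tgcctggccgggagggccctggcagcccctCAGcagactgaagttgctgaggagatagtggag
Sparc-202: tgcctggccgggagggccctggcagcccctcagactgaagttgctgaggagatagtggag
Sparc-202 also begins further downstream, and the labels and headers do not say how reads were assigned between such transcripts.

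Igfbp7 was split between a transcript with and one without an extra coding exon. Igfbp7-202, with the exon, held 24.1 ± 2.90% of reads in cold and 21.6 ± 2.38% in control, and Igfbp7-201 held 75.9 ± 2.90% in cold and 78.4 ± 2.38% in control (SD, n = 3 each). The 93 bases of that exon, at chr5:77401487-77401579 on the minus strand, are in capitals in the window of Igfbp7-202, and the window of Igfbp7-201 shows the junction without them.
Igfbp7-202: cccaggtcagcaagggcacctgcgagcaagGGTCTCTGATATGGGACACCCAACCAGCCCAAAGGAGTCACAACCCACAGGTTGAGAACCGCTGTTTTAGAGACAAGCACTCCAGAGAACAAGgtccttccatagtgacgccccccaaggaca
Igfbp7-201: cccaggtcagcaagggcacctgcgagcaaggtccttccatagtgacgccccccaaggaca
For Serpinh1, 4 transcripts with the same 1251 coding bases shared nearly all reads. Serpinh1-202 held 34.1 ± 1.64% in cold and 28.3 ± 4.93% in control, and Serpinh1-201 held 26.6 ± 1.91% in cold and 32.1 ± 1.61% in control. Serpinh1-203 and Serpinh1-205 held 23.9 ± 2.44% and 15.4 ± 1.10% in cold, against 22.3 ± 7.15% and 17.2 ± 1.13% in control. Dcn-202 held 85.9 ± 5.03% of Dcn reads in cold and 76.4 ± 9.53% in control, and Dcn-201, with the same coding exons, held the rest. For Pcolce, Pcolce-201 held 88.1 ± 5.70% in cold and 92.1 ± 6.85% in control. Serpinf1-201 held 97.0% of Serpinf1 reads. In 18 genes all reads fell on 1 transcript: Mfap5-207 for Mfap5, and the transcript numbered 201 for Loxl1, Mgp, Dpt, Igfbp4, Sparcl1, Serping1, Timp2, Timp3, Bgn, Lum, Fbln1, Fstl1, Nid1, Col1a2, Col4a2, Col6a1 and Col6a2. Loxl1, Dpt and Lum have only 1 annotated transcript, so this says nothing of their transcript use. Nor does it for Nid1, Fbln1, Fstl1, Col6a1 and Col6a2, which had 1 read each.

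**Figure D5:**
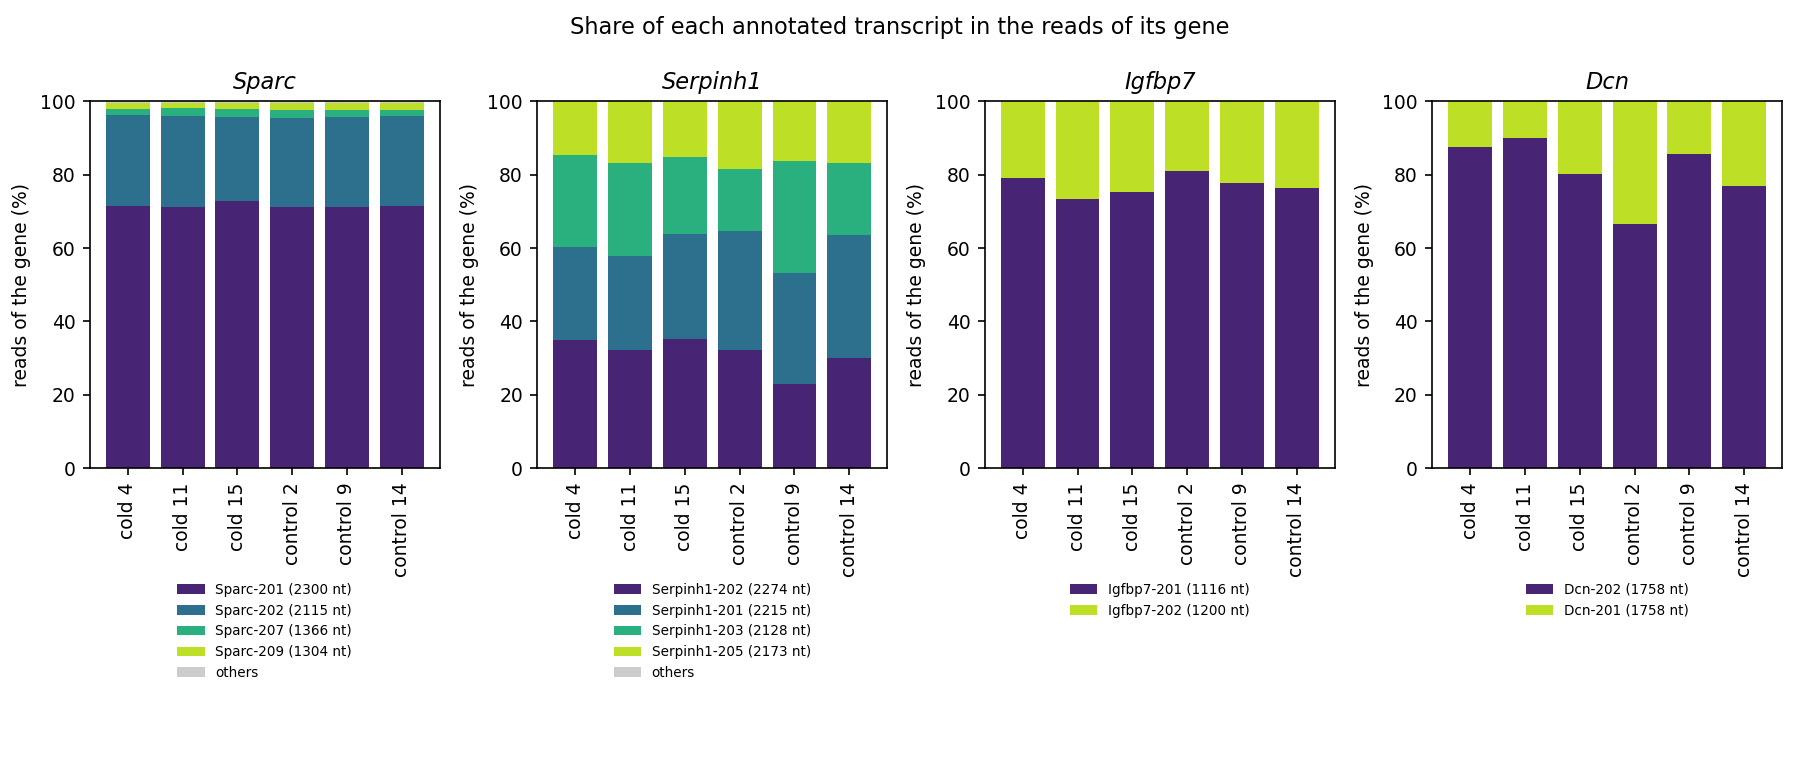
Percent of the reads of Sparc, Serpinh1, Igfbp7 and Dcn on each annotated transcript in each library, cold libraries left and control libraries right; transcripts under 1% of a gene's reads are pooled as others. Sparc-201 holds 71.2 to 72.8% in every library, while the shares of Serpinh1 and Dcn, with fewer reads, vary more between libraries.

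Further genes of the matrix were taken from 11 lists holding 222 genes. Of these 86 had a read and 14 could be compared, of which 2 rose (18.1% over all genes tested) and 1 fell (15.1%) by edgeR. Among elastic fibre genes Ltbp2 rose, a member by name of the latent TGF-beta binding protein family, with a read-weighted annotated length of 6716 nt. It stood at 32.6 ± 10.9 CPM in cold and 10.8 ± 2.82 CPM in control (SD, n = 3 each; log2 change 1.62, adjusted p = 0.00366 by edgeR). In the TGF-beta pathway Eng rose, the endothelial co-receptor endoglin, at 133 ± 4.27 CPM in cold and 66.0 ± 15.6 CPM in control (log2 change 1.01, adjusted p = 0.00633). Among matrix receptors and binding proteins Lgals1, the short transcript of galectin-1, fell to 23.3 ± 5.65 CPM in cold, against 112 ± 56.8 CPM in control (log2 change -2.27, adjusted p = 0.000689). For these 3 genes no library of one group overlapped the other, as in 47.8% of all genes tested.

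None of the 3 tested genes of collagen synthesis and processing was called: Plod1, a lysyl hydroxylase, had a log2 change of 0.42, Tgm2, a cross-linking transglutaminase, 0.86, and Ppib, a proline isomerase that folds procollagen, 0.00. The 2 tested proteoglycans Prelp and Srgn were not called (0.25 and 0.00), nor were the proteases Ctsb and Ctsl and the inhibitor Timp4 (-0.24, 0.28 and 0.53), the complement genes C1qa and Cfd (0.23 and 0.53), or the laminin receptor Dag1 (0.38). The groups did not overlap in Tgm2, higher in cold, and Ctsb, lower in cold, and overlapped in the other uncalled genes named here. Other collagens had a read in 4 of 19 genes, other basement membrane genes in 4 of 18, matricellular and adhesive genes in 6 of 22, and other insulin-like growth factor binding proteins in 2 of 9. No gene of these last 4 lists could be compared.

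Markers of other cells moved with some of these values. In the cold libraries Mgp, Dcn, Dpt and Igfbp7 stood in the order 4, 11, 15, which is also the order of the skeletal muscle sums given above. For Igfbp7, libraries 11 and 15 were nearly equal, at 19.9 and 20.1 CPM. Cold library 15 was the highest for Serpinh1. Sparc, Loxl1 and Pcolce went the other way, with cold library 15 the lowest of the cold libraries for each. In the control libraries Mgp ran against the muscle sums, highest in library 2 and lowest in library 14, and Dcn, Dpt and Igfbp7 did not follow them either. Of 13 muscle markers 12 had a read and 9 were tested, with a median log2 change of 3.47 and none called. Without cold replicate 15, Loxl1 (1.21, adjusted p = 0.0238 by edgeR) and Mgp (-1.39, adjusted p = 0.0194) were still called. Without cold replicates 11 and 15 together Mgp was still called (-1.79, adjusted p = 0.0136 by edgeR), and Loxl1 kept its size but not its call (1.11, adjusted p = 0.143). Endothelial markers summed to 7992, 8819 and 7793 CPM in cold libraries 4, 11 and 15, against 5342, 6607 and 5431 CPM in control libraries 2, 9 and 14. Of 15 such markers 13 had a read and 3 of 6 tested rose (18.1% over all genes tested), and most of the sum was Mgll, which adipocytes also express. Under the length offset Mgll had a log2 change of 0.13 (adjusted p = 0.421 by edgeR) and was not called. Their part in the changes of the matrix genes was not tested.

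For the remaining lists, counts of called markers are to be read against the 18.1% higher and 15.1% lower over all genes tested. Mural cell markers had a read in 10 of 13 genes and 0 of 3 tested were called, with sums of 69.5 to 563 CPM in cold and 66.5 to 94.8 CPM in control, the upper value being cold library 15, where Des, which skeletal muscle also expresses, held 507 CPM. Without Des the mural sums were 46.3 to 55.7 CPM in cold and 49.8 to 55.2 CPM in control. Macrophage markers had a read in 8 of 14 genes, with sums of 59.6 to 129 CPM in cold and 54.0 to 88.4 CPM in control, and 1 of 2 tested, Lgmn, rose. Schwann cell markers had a read in 5 of 7 genes, with sums of 77.5 to 98.8 CPM in cold and 115 to 190 CPM in control, and the 1 tested, S100b, fell. Brown adipocyte markers were all read, with sums of 13894 to 14930 CPM in cold and 14215 to 19046 CPM in control, 2 of 6 tested rose and 1 fell. Adipocyte markers were also all read, at 45495 to 49423 CPM in cold and 40026 to 45239 CPM in control, with 2 of 7 tested higher and 1 lower. Leaving out 1 library ended the calls of Mgll (cold 4, cold 11 or control 14), Lgmn (control 9 or 14), S100b (cold 4, 11 or 15, or control 9), Cox8b (cold 11) and Retn (cold 4), with adjusted p between 0.0521 and 0.136 by edgeR. Among the fibroblast markers 1 of 4 tested, Vim, fell (log2 change -1.09, adjusted p = 0.00901 by edgeR).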

How the data were processed

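Interscapular brown fat of 3 cold and 3 control mice was sequenced as full-length cDNA (TeloPrime, 27 PCR cycles, 400 ng cDNA loaded, no molecular identifiers named), per the labels' protocols; extraction text naming another fat depot was set aside for the tissue label. The authors deposited raw counts of reads per transcript, 2 flow cells per library, and list only transcripts with a read. Per the submitters' processing notes they used minimap2 and GRCm38; versions and read assignment are not given in the sources used here.

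Counts were joined to GENCODE M21 genes (14671 of 14693 identifiers matched) and summed over flow cells and transcripts. Genes passing filterByExpr (minimum count 10) were tested with edgeR 4.0.16 (R 4.3.3), TMM scaling and robust quasi-likelihood F tests, with Benjamini-Hochberg adjustment over all genes. SE is the log2 change over the square root of F. Usage was tested with diffSpliceDGE. Near-identical copies were sought with blastn 2.17.0 at 95% identity over 200 nt. Scripts were tested on simulated data. DESeq2 1.42.0 and other settings are in the closing section. The mice are separate animals. All 34 genes are named, as are the smallest p-values called in the 11 further matrix lists and each transcript holding 10% of a gene's reads; cell marker lists are given as sums, and members named there, the retained-intron transcript and tested uncalled list genes were chosen after their values were seen. Members and lists were chosen with earlier results of these data known.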

Additional observations from a re-analysis of the deposited data

How the results depend on the processing

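The 15 alternatives were DESeq2, library totals without TMM, no count filter, thinning to 1014812 reads, either flow cell alone, protein-coding transcripts alone, a length offset, each library left out, and, chosen after seeing the data, cold replicates 11 and 15 left out together. No paired analysis was possible because the mouse numbers differ between the groups. Genes called (695) were 498 to 687 with 1 library left out and 321 without both cold replicates. Matrix genes called (2) were 0 to 2 with 1 library left out, 0 with flow cell 2 alone (Loxl1 0.0705 and Mgp 0.224 adjusted p by edgeR), and 1 with library totals (Mgp lost) and with DESeq2, thinning, flow cell 1 alone or without both cold replicates (Loxl1 lost). Members of the other lists called (14) fell to 7 without both cold replicates, Eng (1.03, adjusted p = 0.0794 by edgeR) and Vim (-0.77, 0.264) among those lost. Matrix transcripts called (4) were 0 to 4 with 1 library left out, 2 with no filter or flow cell 1 alone and 0 with flow cell 2 alone. Usage calls stayed at 0. Transcripts and usage were not run with DESeq2, thinning, protein-coding transcripts alone, the length offset or both cold replicates left out. Listed genes with a read (26) were 24 after thinning, and 23 and 21 on flow cells 1 and 2 alone (alternatives also chosen after seeing the data). Loxl1 kept its call in 5 alternatives and Mgp in 9, both with their direction in all 15. The log2 change of Dcn turned to -0.040 (adjusted p = 0.973 by edgeR) without both cold replicates, and that of Igfbp7 to 0.0019 (0.996) with no filter. Serpinh1 passed with no filter (0.80, adjusted p = 0.0379 by edgeR), where 3 matrix genes were called. The genes called also switched: they were Dpt and Serpinh1 without control replicate 9, and Mgp and Sparc with the length offset. The length offset moved the median over all genes by -0.11 and no filter by 0.26, on the log2 scale. Pcolce was tested in 12 alternatives. The causes were not tested. The 10 collagens, with 14 reads in all, could not be compared at this depth.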
